A study of Homo sapiens with 6 samples.

Results

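FKBP5 and 9 genes of the chaperone machinery of steroid receptors were followed in IKPRAB-36 cells, an Ishikawa endometrial cancer line stably transfected with the progesterone receptor isoforms PRA and PRB, with and without progestin. The members were all probe sets annotated to FKBP5, FKBP4, PPID, HSP90AA1, HSP90AB1, PTGES3, STIP1, ST13, BAG1 or HSPA8 alone, which gave 26 of the 54613 probe sets tested, for 9 of the 10 genes. HSPA8, the constitutive HSP70, has no value here, because its 4 probe sets are annotated together with the small nucleolar RNA genes SNORD14C and SNORD14D. The cells were cultured for 48 h in charcoal-stripped serum under neomycin and hygromycin selection, either untreated (3 arrays, control 1 to 3) or with 1 nM medroxyprogesterone acetate, the synthetic progestin MPA (3 arrays, MPA 1 to 3). Both groups carry the same PRA and PRB transgenes. The line is 1 selected transfectant, and which promoter drives the transgenes is not stated in the labels or methods.

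In the absence of hormone, a steroid receptor is held in a state ready to bind its ligand by a cycle of chaperones. HSP70 and its partners receive the new receptor protein, the adaptor STIP1 passes it on to HSP90, and the mature complex holds HSP90, p23 and 1 of several large immunophilins that compete for the same docking site. FKBP4 and PPID are such immunophilins. FKBP5 is another, which lowers the affinity of the glucocorticoid receptor for hormone and is itself a well known target gene of glucocorticoid, androgen and progesterone receptors.

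The start regions of these genes carry different short motifs, so those that hold one are shown first. Windows from 250 bases before to 50 bases after a RefSeq start (GRCh38.p14) were at hand for 8 of the 10 genes, 13 windows in all. Each was searched on both strands for a heat shock element (GAANNTTCNNGAA), a full steroid response element (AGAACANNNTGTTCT) and the hexamer that forms each arm of it (AGAACA). In the following stretches of 30 bases, written 5′ to 3′ on the strand of the gene, the capitals mark a heat shock element, except in the FKBP5 stretch, where they mark the hexamer.
HSP90AA1, chr14:102087111-102087140, minus strand: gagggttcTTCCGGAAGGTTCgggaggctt
HSP90AB1, chr6:44247770-44247799, plus strand: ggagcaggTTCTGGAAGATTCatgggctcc
HSP90AB1, chr6:44247823-44247852, plus strand: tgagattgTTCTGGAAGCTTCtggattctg
HSPA8, chr11:123062345-123062374, minus strand: gcgagcttGAAAGTTCCAGAAcgctgcggt
HSPA8, chr11:123062170-123062199, minus strand: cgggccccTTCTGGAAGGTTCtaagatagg
FKBP5, chr6:35728566-35728595, minus strand: caccactaccccAGAACAaactcctacctc
Heat shock elements thus stood in 3 of the 13 windows (HSP90AA1, HSP90AB1 and HSPA8), and in 0.49% of all 35116 windows of the table. The hexamer stood in 1 of the 2 FKBP5 windows, where it begins at the start site, and in 1 HSP90AB1 window, where it overlaps a heat shock element; 14.8% of all windows hold it. The full steroid response element was in 0 of the 13 windows and in 1 of all 35116 (0.00285%), so its absence here says little. A match of letters is a description of these windows and says nothing of binding, and regions outside the windows were not searched.

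FKBP5 rose with MPA in all 3 of its probe sets, by 11.8-fold to 22.6-fold, and none of the 23 probe sets of the other 8 chaperone genes passed the test in either direction. A probe set was called where the adjusted p from limma was under 0.05 and the log2 fold change at least 0.32 in size. Of the 26 chaperone probe sets 3 were called, all higher, while over the whole array 2.03% were called, 1.21% higher and 0.813% lower. Those were 663 and 444 probe sets, so that 59.9% of the calls were higher, against 38.3% after scaling by housekeeping genes (492 and 793). The brightest FKBP5 probe set, 224840_at, had log2 signals of 9.76, 9.82 and 9.84 on the control arrays and 13.43, 13.34 and 13.32 on the MPA arrays. The second, 224856_at, went from 8.22, 8.49 and 8.60 to 12.56, 12.57 and 12.62. The third, 204560_at, went from 6.62, 6.76 and 6.97 to 11.26, 11.20 and 11.38. The groups lay far apart in each of the 3, and the gap between them was many times the range within a group, which reached 0.38 at most.

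**Figure D1:**
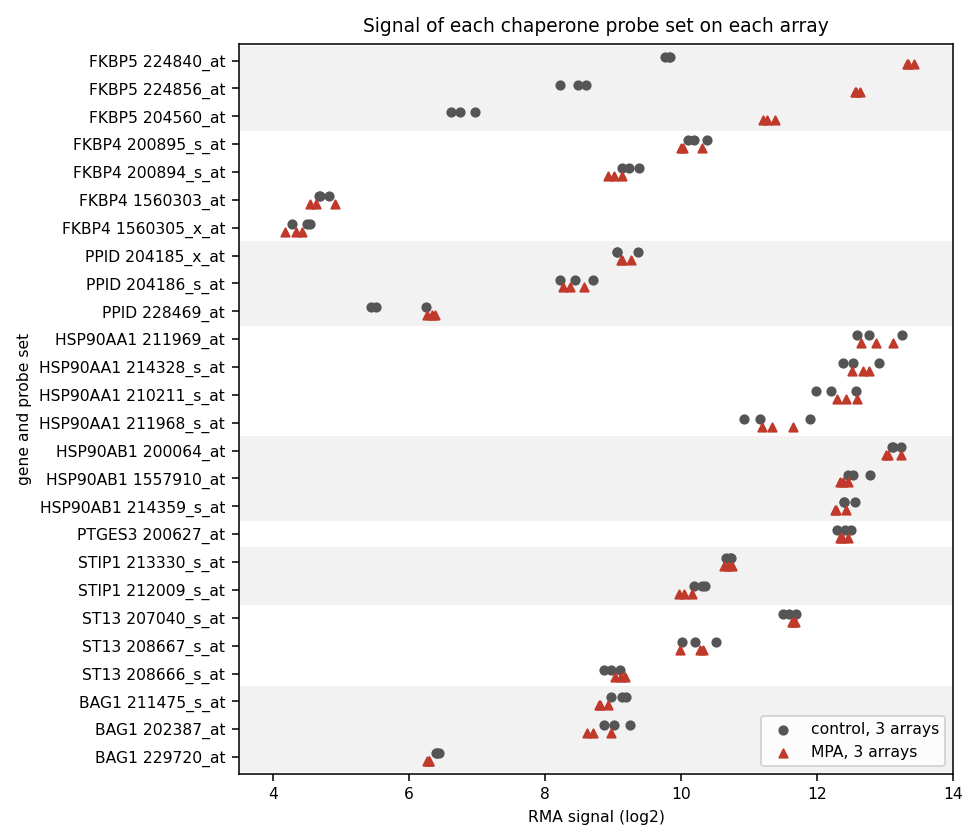
RMA signal on the log2 scale (x axis) of the 26 chaperone probe sets (y axis) on each control array (grey circles) and each MPA array (red triangles). The 3 FKBP5 probe sets stand apart by group, while the points of the other genes lie close together or overlap.

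As log2 fold changes, these were 3.56 (95% interval 3.33 to 3.78) for 224840_at, 4.15 (3.87 to 4.43) for 224856_at and 4.50 (4.22 to 4.78) for 204560_at, with adjusted p-values of 2.33e-06, 2.96e-06 and 2.33e-06 from limma. The group means of the brightest were 9.81 ± 0.04 and 13.36 ± 0.06 (SD, n = 3 arrays each). The interval of 224840_at did not reach those of the other 2, and the brightest probe set had the smallest change; the cause was not tested. By its brightest probe set, FKBP5 ranked 12 among 19775 genes ordered by increase. By single probe sets, 204560_at ranked 5 among the 54613 tested. It was noted that FKBP5 kept its call in each of the 3 probe sets under every alternative that was run, with a log2 fold change of 3.44 to 3.58, 4.03 to 4.23 and 4.38 to 4.59. The labels do not say whether the 3 arrays of a group came from separate cultures, so these p-values measure only the spread between arrays, which may be technical. In bulk RNA, a change in every cell and a larger change in some of the cells cannot be told apart.

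FKBP4, the immunophilin closest to FKBP5 in sequence and domain order, did not follow it. Its brightest probe set, 200895_s_at, had signals of 10.38, 10.10 and 10.19 on the control arrays and 10.02, 10.001 and 10.30 on the MPA arrays. The groups overlapped, and the log2 fold change was -0.11 (95% interval -0.41 to 0.18, adjusted p = 0.885 from limma). The second, 200894_s_at, went from 9.39, 9.13 and 9.23 to 9.01, 8.93 and 9.13, a log2 fold change of -0.23 (-0.48 to 0.03, adjusted p = 0.585), with the groups just apart. The remaining 2 FKBP4 probe sets lay under the median signal on all 6 arrays, with log2 fold changes of -0.04 and -0.12, and may not measure a transcript at all. Within each array, the FKBP5 signal minus the FKBP4 signal was -0.63, -0.28 and -0.35 in control cells and 3.41, 3.33 and 3.02 with MPA, so that the log2 fold changes of the 2 genes differed by 3.67. The exact permutation test gave p = 0.1 (two-sided), which is the smallest p that 3 arrays against 3 allow (adjusted p = 0.2 over the 2 pairs of genes compared).

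The third immunophilin, PPID, a large cyclophilin, gave unequal values between its probe sets. Its brightest, 204185_x_at, was at 9.06, 9.37 and 9.07 in control cells and 9.13, 9.27 and 9.11 with MPA (log2 fold change 0.00, 95% interval -0.27 to 0.28), and 204186_s_at had a log2 fold change of -0.06. The dim probe set 228469_at was at 5.52, 6.26 and 5.45 in control cells and 6.27, 6.38 and 6.34 with MPA. All 3 MPA arrays lay above the controls, though control 2 nearly reached them, and the log2 fold change of 0.59 (0.13 to 1.05) did not pass the test (adjusted p = 0.306 from limma). Without control 2 this probe set was called higher, at 0.85 (adjusted p = 0.0104). It was the 1 call of the other 8 genes under any alternative, and the brighter PPID probe sets did not share it. Unlike 228469_at, these have the endings _x_at and _s_at, which mark probe sets that can bind more than 1 transcript.

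**Figure D2:**
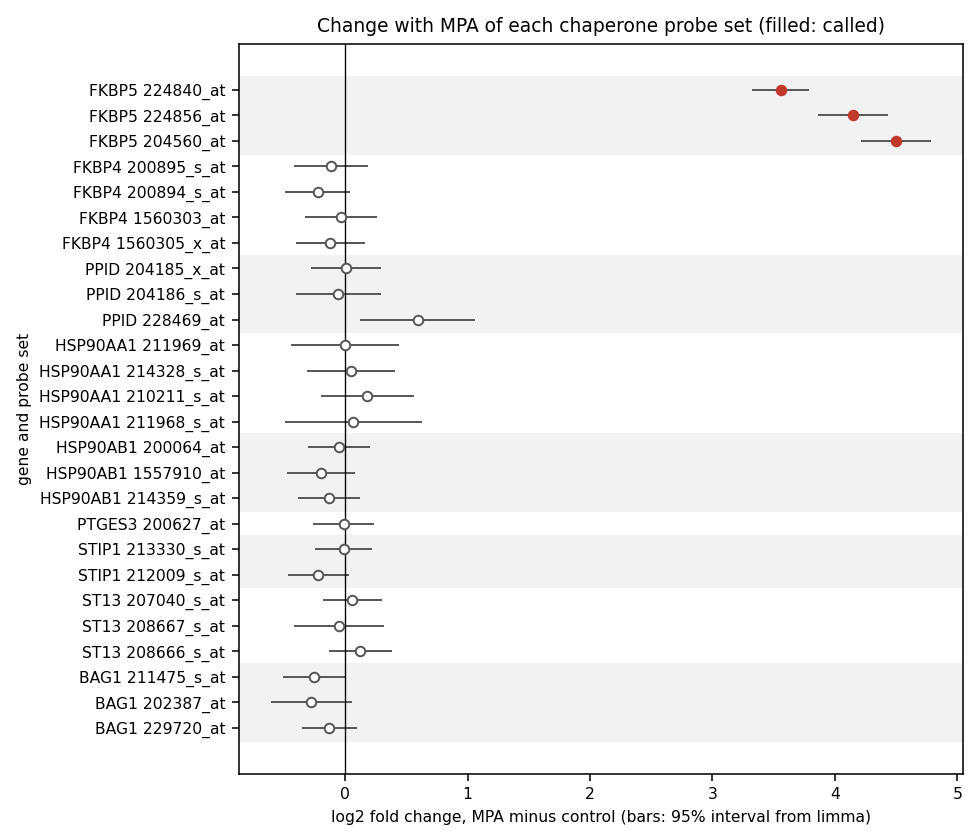
Change with MPA (x axis, log2 fold change over the control arrays, 3 arrays each) for the 26 chaperone probe sets (y axis), with 95% intervals from limma. Filled points passed the test, which were the 3 FKBP5 probe sets (3.56 to 4.50); the other 23 lie between -0.28 and 0.59.

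HSP90 is the chaperone that binds the hormone-binding domain of the receptor, and human cells make a stress-inducible form (HSP90AA1) and a constitutive form (HSP90AB1). Neither passed the test. HSP90AA1 in its brightest probe set, 211969_at, was at 12.59, 13.25 and 12.76 in control cells and 12.86, 13.11 and 12.64 with MPA, with a log2 fold change of 0.00 (95% interval -0.43 to 0.43, adjusted p = 1.00 from limma). Its other 3 probe sets had log2 fold changes of 0.05 to 0.18. The widest spread was in 211968_s_at, at 10.92, 11.89 and 11.17 in control cells and 11.34, 11.65 and 11.18 with MPA. The highest and the lowest of the 6 arrays were both controls in 211969_at and 211968_s_at, so the groups overlapped fully.

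HSP90AB1 was steadier between arrays. In 200064_at it was at 13.10, 13.12 and 13.23 in control cells and 13.02, 13.05 and 13.23 with MPA, a log2 fold change of -0.05 (95% interval -0.30 to 0.19, adjusted p = 0.952 from limma), and 214359_s_at had a log2 fold change of -0.13. In 1557910_at it was at 12.46, 12.52 and 12.78 in control cells and 12.39, 12.34 and 12.46 with MPA, a log2 fold change of -0.20 (-0.47 to 0.07, adjusted p = 0.684). The highest MPA array there lay just below the lowest control array. The within-array difference between HSP90AA1 and HSP90AB1 moved by 0.05 with MPA (exact permutation test, two-sided, p = 1, n = 3 arrays each), and its sign turned when control 1, control 3 or MPA 2 was left out (-0.06, -0.04 and -0.09). Names that end in _s_at or _x_at mark probe sets that can bind more than 1 transcript. Signals of HSP90 genes in such probe sets, 3 of the 4 for HSP90AA1 and 1 of the 3 for HSP90AB1, may therefore hold those of close relatives. The same limit applies to probe sets of the other chaperone genes with these endings.

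Of the co-chaperones that work with HSP90 and HSP70, p23 (PTGES3), which stabilizes the mature receptor complex, was at 12.29, 12.50 and 12.41 in control cells and 12.34, 12.46 and 12.36 with MPA. Its log2 fold change was -0.01 (95% interval -0.25 to 0.23). STIP1, or HOP, which bridges HSP70 and HSP90, had a log2 fold change of -0.01 (-0.24 to 0.21) in its brightest probe set 213330_s_at. In 212009_s_at it was at 10.30, 10.19 and 10.35 in control cells and 10.17, 9.98 and 10.04 with MPA, a log2 fold change of -0.22 (-0.46 to 0.02, adjusted p = 0.552 from limma). The MPA arrays lay below the controls there, but not in 213330_s_at. ST13, or HIP, which slows the release of the receptor from HSP70, was at 11.50, 11.69 and 11.58 in control cells and 11.64, 11.64 and 11.67 with MPA in 207040_s_at. The log2 fold changes of its 3 probe sets were 0.06, -0.05 and 0.12 (adjusted p of 0.831 to 0.972), with overlapping groups in each.

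BAG1, a nucleotide exchange factor of HSP70 that can also dampen steroid receptor activity, had the lowest values among the brightest probe sets of the genes. In 211475_s_at it was at 9.19, 8.98 and 9.14 in control cells and 8.79, 8.81 and 8.93 with MPA. The groups did not overlap, and the log2 fold change was -0.26 (95% interval -0.50 to -0.01, unadjusted p = 0.0405, adjusted p = 0.446 from limma). In 202387_at it was at 9.25, 8.86 and 9.01 in control cells and 8.62, 8.70 and 8.97 with MPA, a log2 fold change of -0.28 (-0.60 to 0.05, adjusted p = 0.599), with overlapping groups. In 229720_at it was at 6.42, 6.40 and 6.44 in control cells and 6.30, 6.27 and 6.30 with MPA, a log2 fold change of -0.13 (-0.34 to 0.09, adjusted p = 0.771), with tight groups that did not overlap. None of the 3 was called under any alternative, whether by SAM, after scaling by housekeeping genes or without any 1 array.

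Across the 23 probe sets of these 8 genes the median log2 fold change was -0.05, against 0.01 for all probe sets tested, and 15 lay below 0. Limma called 0 higher and 0 lower. SAM, the permutation-based test of the methods, coded anew here, likewise called 0 (2.40% higher and 1.59% lower over the array). An unadjusted p under 0.05 was reached by 2 (PPID 228469_at and BAG1 211475_s_at), where 10.3% of all probe sets reached it. In 6 of the 23 the groups did not overlap, 1 higher and 5 lower with MPA, against 15.4% of all probe sets (7.94% higher and 7.43% lower). Over the 8 brightest probe sets the log2 fold changes lay between -0.26 and 0.06, and their 95% intervals between -0.50 and 0.43. Scaling by 10 housekeeping genes lowered every log2 fold change by 0.12, so that the sign of values smaller than this, such as those of HSP90AA1 211969_at and ST13 207040_s_at, is not settled. The housekeeping genes were not all steady themselves. Their log2 fold changes ran from -0.16 to 0.33, with 7 of the 10 above 0 and 0 called by limma.

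Within the groups, the chaperone genes did not all vary alike. HSP90AA1 had its highest control value on control 2 and its highest MPA value on MPA 2 in 4 of 4 probe sets. PPID had this order in 3 of 3, PTGES3 in its single one and ST13 in 1 of 3. It held for 0 of the 4 FKBP4, 0 of the 3 FKBP5, 0 of the 3 HSP90AB1, 0 of the 2 STIP1 and 0 of the 3 BAG1 probe sets. Of all probe sets tested, 15.1% had this order, and probe sets of 1 gene are not separate observations. The range among the 3 control arrays was 0.53 to 0.98 for the HSP90AA1 probe sets and 0.13 to 0.32 for those of HSP90AB1. The spread of HSP90AA1 between untreated arrays was thus wider than any change with MPA in that gene.

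**Figure D3:**
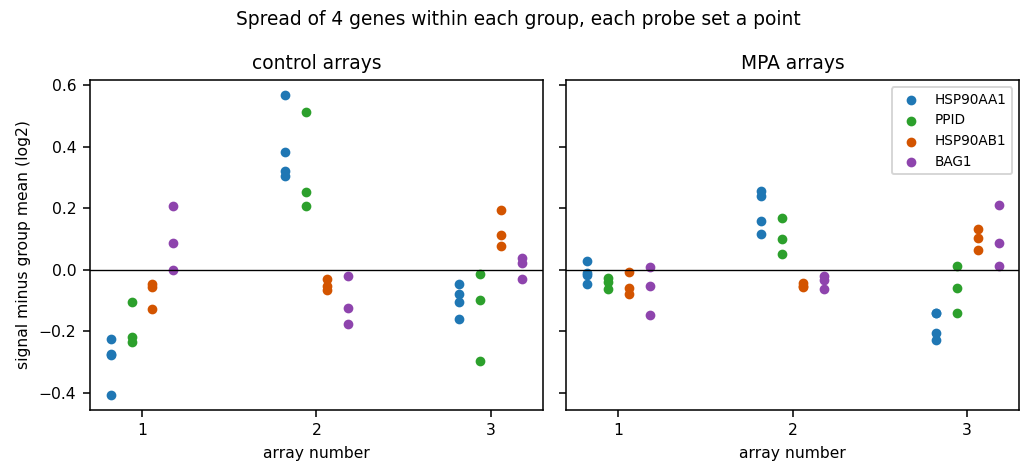
Signal of each probe set minus the mean of its group (y axis, log2 scale) on the 3 control arrays (left) and the 3 MPA arrays (right) for HSP90AA1, PPID, HSP90AB1 and BAG1, each point 1 probe set. HSP90AA1 and PPID are highest on control 2 and on MPA 2, which HSP90AB1 and BAG1 are not.

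The wider chaperone families were looked at next, each gene by its brightest probe set. Of 91 measured genes in 7 lists, 0 were called higher and 1 lower by limma, and 15 had an unadjusted p under 0.05. Over all 19775 genes, limma called 2.90%, 1.74% higher and 1.16% lower, and 11.8% had an unadjusted p under 0.05. SAM called 8 of the 91 higher and 1 lower, and 3.10% of all genes higher and 2.13% lower. Of the 14 other genes of the FK506-binding protein family, none was called by limma or SAM and none had an unadjusted p under 0.05. Their log2 fold changes were -0.30 to 0.23, with FKBP10 (-0.30, adjusted p = 0.733) and FKBP7 (-0.25, adjusted p = 0.549), both of the endoplasmic reticulum, farthest from 0. The median of this list was 0.01, against 0.02 over all genes.

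Of 19 other HSP90 co-chaperones 0 were called by limma, and 1 had an unadjusted p under 0.05. This was FNIP2, a folliculin partner that slows the ATPase of HSP90, at 7.30, 7.74 and 7.41 in control cells and 7.997, 8.29 and 8.05 with MPA. Its groups did not overlap, and its log2 fold change of 0.63 (adjusted p = 0.0858 from limma) was called by SAM and without control 2 (0.76, adjusted p = 0.0327). STUB1, a ubiquitin ligase that removes clients of HSP70 and HSP90, was next in size (0.23, adjusted p = 0.527).

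Of 26 other genes of the HSP70 system, limma called 0, SAM called 5 higher (DNAJB4, DNAJC3, DNAJB9, BAG3 and DNAJC15) and 7 reached an unadjusted p under 0.05, against 3.10% and 11.8% of all genes. The median log2 fold change of this list was 0.20, which scaling by housekeeping genes lowers by 0.12 as it does every value. DNAJB4, a J protein that feeds clients to HSP70, was at 6.85, 7.84 and 7.06 in control cells and 8.08, 8.53 and 7.92 with MPA, a log2 fold change of 0.93 (95% interval 0.33 to 1.52, adjusted p = 0.175 from limma). Control 2 was again the highest control array. Without it DNAJB4 and DNAJC3, a J protein of the endoplasmic reticulum (0.74, adjusted p = 0.147), were called higher, at 1.22 (adjusted p = 0.0171) and 0.98 (adjusted p = 0.00920).

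None of the 5 organelle forms of HSP90 and HSP70 was called by limma or SAM, and 1 had an unadjusted p under 0.05. It was HSP90B1 of the endoplasmic reticulum (log2 fold change 0.54, adjusted p = 0.341), followed in size by its HSP70 counterpart HSPA5 (0.24, adjusted p = 0.559). Of 12 heat shock response genes, several of which also stand in the other lists, limma called 0 and SAM 2 higher (HSPB1 and BAG3), while 3 reached an unadjusted p under 0.05 (these and CRYAB). Of the small heat shock proteins, HSPB1 was at a log2 fold change of 0.50 (adjusted p = 0.0656) and CRYAB at -0.51 (adjusted p = 0.156). HSPB1 was called higher with an intensity trend (adjusted p = 0.00730), and CRYAB was called lower after scaling by housekeeping genes (-0.63, adjusted p = 0.0333). Of 16 other genes of the cyclophilin family, limma called 0 and SAM 1 higher, PPIF of the mitochondrion (0.47, adjusted p = 0.165). An unadjusted p under 0.05 was reached by 2, PPIF and PPIH of the spliceosome (-0.39, adjusted p = 0.173). RANBP2 of the nuclear pore had the largest value of the list (0.57, adjusted p = 0.558).

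**Figure D4:**
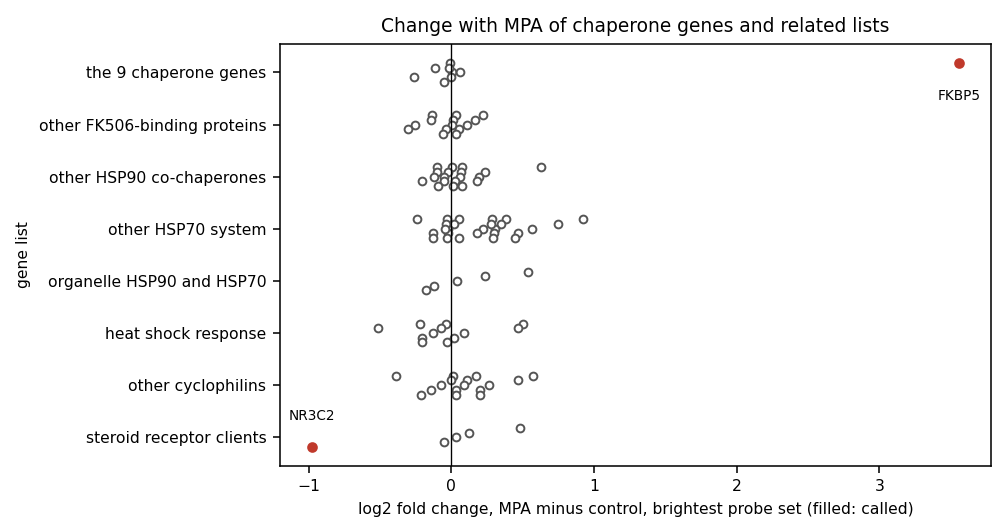
Change with MPA (x axis, log2 fold change over the control arrays, 3 arrays each) for the brightest probe set of every measured gene in the lists on the y axis. Filled points passed the test, FKBP5 at 3.56 and NR3C2 at -0.97.

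Among 5 receptors that use this machinery, the mineralocorticoid receptor gene NR3C2 fell, from 7.45, 7.75 and 7.51 in control cells to 6.69, 6.60 and 6.50 with MPA (log2 fold change -0.97, 95% interval -1.25 to -0.70, adjusted p = 0.00418 from limma). It kept its call under every alternative but the minimum of 2-fold. The glucocorticoid receptor gene NR3C1 was at 0.12 on that scale (95% interval -0.35 to 0.59, adjusted p = 0.936). PGR, which the line was made to express, was at 10.25, 10.24 and 10.17 in control cells and 10.47, 10.56 and 11.08 with MPA, and all 3 MPA arrays lay above the controls, but the log2 fold change of 0.48 did not pass the test (adjusted p = 0.294). A signal of PGR can come from the transgenes or from the gene of the cell, which this probe set may not tell apart. The estrogen receptor genes ESR1 and ESR2 had log2 fold changes of -0.05 and 0.03. Their mean control signals of 5.79 and 5.49 were close to the array medians (5.16 to 5.28), so a change in them could be missed.

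On the chromosome, FKBP5 stands between TULP1 and ARMC12, and its immediate neighbour ARMC12 rose with it. ARMC12, a gene of armadillo repeats known from sperm development, was at 4.62, 4.15 and 4.76 in control cells and 6.73, 6.67 and 7.09 with MPA. The groups lay well apart, and the log2 fold change was 2.32 (95% interval 1.90 to 2.74, adjusted p = 0.000440 from limma). ARMC12 was called under every alternative that was run. Leaving out dim probe sets adds nothing here, since that filter used the mean over all 6 arrays. ARMC12 passed it only through its MPA arrays. The control signals lay under the median of their arrays, near background, so the 4.99-fold change is that of the RMA signals only. ARMC12 lies on the side of the FKBP5 start, since FKBP5 is read from the minus strand. On the same side CLPS and LHFPL5, and on the other side TULP1, TEAD3 and RPL10A, had log2 fold changes between -0.05 and 0.13, with adjusted p-values of 0.847 to 0.965. CLPS, LHFPL5 and TULP1 lay under the median on all 6 arrays, so a change in them could be missed.

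**Figure D5:**
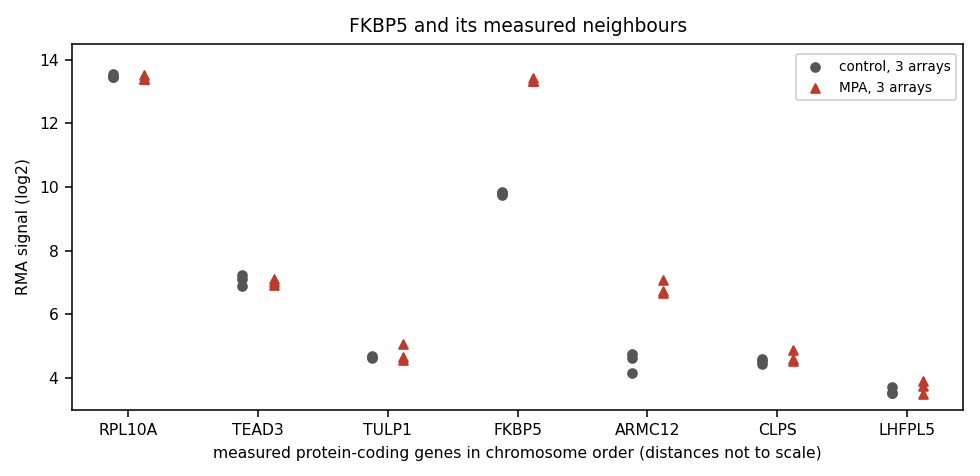
RMA signal on the log2 scale (y axis) of FKBP5 and of the 3 nearest measured protein-coding genes on each side, in chromosome order (x axis), on each control array (grey circles) and each MPA array (red triangles). FKBP5 and ARMC12 differ between the groups, while the other 5 genes overlap.

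The genes whose pattern over the 6 arrays was most like that of FKBP5 were IRS2, SGK1, POU5F1P3, COL4A3 and TIPARP, with Pearson correlations of 0.998 to 1.00 among 19774 genes compared. Such values mostly state that each had 2 tight groups of arrays that lay far apart, and the points share the arrays. The changes themselves were of different size. IRS2, an adaptor of the insulin and IGF receptors, rose 2.07-fold and TIPARP, an ADP-ribosyltransferase, 17.8-fold. POU5F1P3 is a pseudogene of POU5F1, and its probe set (210265_x_at) may bind its relatives.

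As a check of the line, 5 epithelial and 5 other marker genes were read, of which limma called 0. All 5 epithelial markers (KRT8, KRT18, KRT19, EPCAM and CDH1) lay above the array medians, with KRT18 at 14.02 and CDH1, the lowest, at 8.30 on average in control cells. Of the other 5, the leukocyte gene PTPRC (3.66) and the endothelial gene VWF (4.90) lay below the medians on all 6 arrays. The fibroblast genes COL1A1 (8.97) and DCN (5.41) and the endothelial gene PECAM1 (6.30) lay above, DCN close to the medians (5.16 to 5.28). The groups did not overlap in COL1A1 (log2 fold change -0.81, adjusted p = 0.168), CDH1 (-0.76, adjusted p = 0.128) and EPCAM (-0.54, adjusted p = 0.0586), each lower with MPA, nor in KRT8 (0.22, adjusted p = 0.682), which was higher. Their part in the chaperone results was not tested. The poly-A control probe sets were lower on MPA 3 (6.19) than on the other arrays (7.50 to 8.23), and the signal of the 3′ minus the 5′ probe set of ACTB was 0.23 to 0.43 over all 6 arrays. Without MPA 3 the FKBP5 log2 fold changes were 3.58, 4.13 and 4.45, and no other chaperone probe set was called.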

How the data were processed

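RNA of untreated and MPA-treated IKPRAB-36 cells was hybridized to Affymetrix U133 Plus 2.0 arrays. The values the authors deposited are RMA signals, which are on a log2 scale. RMA subtracts background, equalizes the arrays by quantiles and summarizes the probes of a set, and it was not repeated; its software version is not stated in the labels or methods. Detection calls were not used here. Of 54675 probe sets, 62 Affymetrix controls were left out. Gene names came from the annotation of the platform and were brought up to date by Entrez number (41037 of 41091 with 1 symbol matched). Probe sets with several symbols or none (1801 and 11721) were tested but not named.

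The test of MPA against control was limma 3.58.1 under R 4.3.3 (lmFit and eBayes without covariates, two-sided), adjusted by Benjamini-Hochberg over 54613 probe sets. Calls were made at an adjusted p under 0.05 with the fold minimum of the methods (0.32 on the log2 scale). SAM, the test of the methods, was coded anew here, so its calls need not equal those of the authors' software. It was an alternative (delta 0.53, 20 relabelings, constant at the 55th percentile), since so few relabelings give coarse p-values. The others were the replicate number as a block, treat, an intensity trend, no fold minimum or 2-fold, dim probe sets left out, housekeeping or quantile scaling, each array left out, and the mean of a gene's probe sets. The number of arrays limits the precision. Steps were tested on simulated data.

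A gene outside the members was its brightest probe set. Named were all members, up to 4 called genes per direction of each list (the 2 with the largest change where none was called), the 3 nearest measured neighbours of FKBP5 on each side and the 5 genes most like it, beside genes that another setting called. Outside this rule, PPIH was named after its values were seen, as were the 4 receptor genes not called and the line markers. The members and lists were chosen with earlier results of these data known. Of 98 listed genes, 91 had a probe set of their own. Gene order and start windows are from RefSeq GRCh38.p14.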

Additional observations from a re-analysis of the deposited data

How the results depend on the processing

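The count of chaperone probe sets called was 3 higher and 0 lower under each alternative but 1, the fit without control 2, where PPID 228469_at made it 4 higher. By the mean of its probe sets, FKBP5 was the 1 chaperone gene called. Over all probe sets, 663 higher and 444 lower became 1208 and 825 with the replicate block, 1313 and 868 by SAM, 318 and 137 by treat, 357 and 153 at 2-fold, 492 and 793 after housekeeping scaling, and 353 to 725 and 156 to 465 with an array left out. Of the 91 related genes, none higher and 1 lower became 6 and 2 with the replicate block, 8 and 1 by SAM, 2 and 1 with an intensity trend, 0 and 2 after housekeeping scaling, 1 and 1 with probe sets averaged, 0 and 0 at 2-fold, and 0 to 3 higher with an array left out. With the block, 3 genes of the HSP70 system, 1 other HSP90 co-chaperone, 1 cyclophilin and 1 heat shock response gene (HSPB1) were higher and 1 heat shock response gene (CRYAB) was lower, which was lower after housekeeping scaling too. SAM called 5, 1, 1 and 2 higher in these 4 lists. The intensity trend called 1 higher in the HSP70 system (DNAJC15) and 1 in the heat shock response (HSPB1), and without control 2 the calls were 2 in the HSP70 system and 1 co-chaperone (0 to 2 and 0 to 1 over all arrays left out). At 2-fold, 0 receptors were lower. The difference between HSP90AA1 and HSP90AB1 ranged from -0.094 to 0.26 with an array left out, and its sign turned without control 1, control 3 or MPA 2 (-0.062, -0.039 and -0.094). The deviations of same-numbered arrays from their group means had correlations of -0.02, 0.52 and 0.33. Those of control 1 were closest to MPA 3 (0.35). Whether the replicate numbers pair the samples is therefore not settled, and the block is given here only. Among 336 values of chaperone probe sets under alternatives, 28 had another sign than in the comparison reported, all in probe sets not called. The 95% intervals of the other chaperones rest on 3 arrays a group, hold for single probe sets and measure only the spread between arrays.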
